A study of Rattus norvegicus with 71 samples.

Results

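The 16 libraries described here are the vehicle baseline of a compound screen in rat cortical cultures. They are all libraries whose label gives a concentration of 0 µM, whichever compound they were run beside, and they make up 16 of the 71 libraries of the series. The other 55 received 1 of 6 compounds: the antipsychotic haloperidol, the marine toxin domoic acid, the pyrethroids deltamethrin and cypermethrin, or the antimetabolites cytosine arabinoside and 5-fluorouracil. All 71 are primary cells from rat cortex, plated at 150K cells per well on microelectrode array plates and lysed on day in vitro 12. The 16 controls had a vehicle, which the labels do not name, from 2 h after plating, with renewal on days 5, 7 and 9. Each library pools 2 to 3 wells, and per the labels the experiment was done on 2 separate cultures. Titles place 5 controls in a project called GRC321, namely replicate 1 of haloperidol, domoic acid, deltamethrin, cypermethrin and cytosine arabinoside. The other 11 are in GRC327, namely replicates 2 and 3 of haloperidol, domoic acid, deltamethrin and cytosine arabinoside, replicate 2 of cypermethrin and replicates 1 and 2 of 5-fluorouracil. The labels give neither strain, age nor sex, and they do not say which library came from which culture. The p-values below therefore measure only the spread between these libraries, and what sets the projects apart (culture, library preparation or sequencing) cannot be told apart.

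Dissociated cortex in culture is a mixture. Glutamatergic projection neurons and GABAergic interneurons grow axons and form synapses over the first weeks, and their networks begin to fire in bursts that array electrodes record. Astrocytes, which clear transmitter and support synapses, and cells of the oligodendrocyte lineage multiply beneath them unless division is blocked. As neurons mature in this period, GABA turns from depolarising to hyperpolarising as the chloride exporter KCC2 (Slc12a5) replaces the importer NKCC1 (Slc12a2), and NMDA receptors gain GluN2A beside GluN2B.

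Library totals ran from 9295139 to 11782574 counts in GRC321 and from 7122404 to 17698063 in GRC327. Levels below are CPM, counts relative to the library's total, scaled between libraries and not divided by transcript length, so a level can be followed across libraries but does not order one gene's transcripts above another's. Of 19771 genes in the table, 11916 reached 1 CPM in all 16 libraries, 11497 of them protein coding, and 140 had no count in any. Genes of the mitochondrial genome took 3.36% to 4.61% of the counts in GRC321 and 2.68% to 3.23% in GRC327.

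The libraries fell into 3 sets and 1 library stood apart. The first principal component, with 47.3% of the variance, separated the projects. Correlations of log2 CPM across genes ran from 0.927 to 0.957 between projects, against 0.965 to 0.984 within GRC321 and 0.969 to 0.99 within GRC327. Within GRC327, transcripts of genes on chromosome Y divided the libraries by the number in their title. Ddx3 of chromosome Y, a putative RNA helicase gene, had 56.8 to 86.5 CPM in GRC321, 0 to 0.144 CPM in the 5 GRC327 controls with title numbers up to 23 (haloperidol 2, domoic acid 2 and 3, cytosine arabinoside 2 and 5-fluorouracil 1) and 66.9 to 100 CPM in the 6 with numbers from 24 up. Treated libraries split at the same title number, with 50 to 119 CPM in GRC321, 0 to 1.82 CPM in the 18 lower-numbered GRC327 libraries and 60.4 to 93.7 CPM in the 18 higher-numbered ones. Since this split was seen in the data, results against a GRC327 set alone are given below for some calls and lists that turn on the set. Where none is given, stability across the sets is not implied. No test was made between the sets. The cypermethrin control of GRC321 correlated at 0.965 to 0.976 with the other 4, which correlated at 0.979 to 0.984 among themselves.

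**Figure D1:**
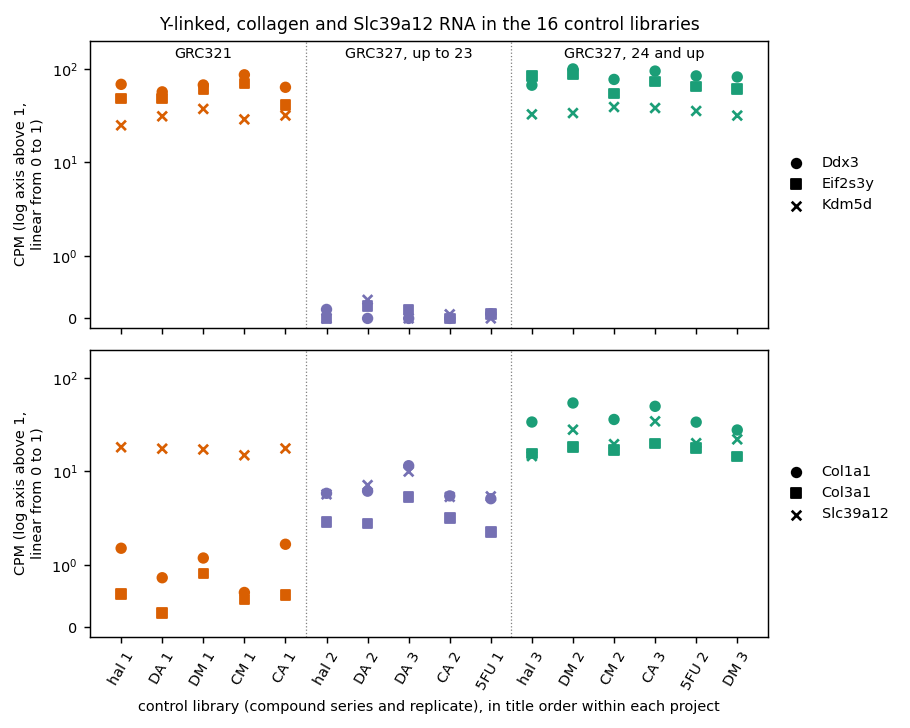
CPM of the chromosome Y genes Ddx3, Eif2s3y and Kdm5d (upper plot) and of Col1a1, Col3a1 and Slc39a12 (lower plot) in each of the 16 controls, on an axis that is linear from 0 to 1 CPM and logarithmic above; hal, DA, DM, CM, CA and 5FU stand for the compound series haloperidol, domoic acid, deltamethrin, cypermethrin, cytosine arabinoside and 5-fluorouracil. Ddx3 is at 0 to 0.144 CPM in the 5 GRC327 libraries with title numbers up to 23 and at 56.8 CPM or more in every other control.

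The 20 nuclear genes with the highest mean CPM held 6.52% to 7.06% of the counts of a GRC321 library and 6.24% to 6.82% of a GRC327 library. Scd2, a fatty acid desaturase, averaged 6562 ± 451 CPM in GRC321 and 7522 ± 761 CPM in GRC327 (SD, n = 5 and 11, as for all means below). Map1b, a microtubule-associated protein of extending axons, averaged 6385 ± 583 CPM in GRC321 and 6045 ± 1034 CPM in GRC327. Also among them were the cytoskeletal genes Tuba1a (5242 ± 560 CPM in GRC321, 3032 ± 492 CPM in GRC327), Stmn2, Map2, Mapt, Dclk1, Pafah1b1 (Lis1) and the kinesins Kif5c and Kif1b. Rtn3, the membrane glycoprotein gene Gpm6a, the chaperone Hsp90aa1, the sterol synthesis enzyme Hmgcs1, the adaptor Ywhae, the vesicle calcium sensor Syt1, Enc1 and the adhesion molecule Ncam1 followed, with the unnamed LOC100361457 and AABR07000398.1.

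Neuronal transcripts were well read in every control. The 20 pan-neuronal markers summed to 18666 to 20448 CPM in GRC321 and 15858 to 19574 CPM in GRC327. Across all genes the project test, edgeR's quasi-likelihood test of GRC321 over GRC327, called 7818 of 13770 genes (56.8%) at an adjusted p under 0.05, 3877 higher in GRC321 (28.2%) and 3941 lower (28.6%), with a median log2 difference of -0.01. Counts of list members called are to be read against those shares. The share of all genes without overlap between projects was not counted, so lack of overlap does not by itself set a gene apart. Of the 20 pan-neuronal genes 6 rose and 2 fell, at a median log2 difference of 0.15. Stmn2, a microtubule regulator of growth cones, had 4644, 4130, 4465, 2972 and 4304 CPM in the GRC321 controls (haloperidol, domoic acid, deltamethrin, cypermethrin and cytosine arabinoside, the order kept below), and a lowest, median and highest of 2239, 2642 and 3381 CPM in the 11 GRC327 controls. All but the cypermethrin library lay above every GRC327 value (log2 difference 0.59, SE 0.104, adjusted p = 5.06e-05). Mapt, the axonal tau protein, fell in GRC321, with 1789 to 1987 CPM, all below the 2219 to 3024 CPM of GRC327 (log2 difference -0.50, SE 0.080, adjusted p = 1.78e-05).

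Both classes of cortical neuron were present. The glutamatergic list of 18 genes summed to 1604 to 1776 CPM in GRC321 and 1729 to 2064 CPM in GRC327, with 5 members higher and 5 lower, and 3 and 5 against the higher-numbered GRC327 controls alone but 9 and 3 against the lower-numbered ones. Slc17a7, the vesicular glutamate transporter of cortical projection neurons, averaged 253 ± 24.8 CPM in GRC321 and 245 ± 35.5 CPM in GRC327, and the deep layer factor Bcl11b averaged 106 ± 9.45 CPM in GRC321 and 89.7 ± 16.7 CPM in GRC327; neither passed the test. Slc17a8, the vesicular transporter of few cortical cells, had 0.341 to 2.49 CPM in GRC321 and 0.281 to 2.39 CPM in GRC327. Camk2a, the synaptic kinase of mature excitatory neurons, had 187, 182, 178, 132 and 190 CPM in GRC321 and 315, 373 and 415 CPM as lowest, median and highest in GRC327. The groups did not overlap (log2 difference -1.08, SE 0.086, adjusted p = 1.82e-09). Camk2a differed the same way among treated libraries of the same projects (log2 difference -1.15, adjusted p = 1.29e-22). Those libraries share whatever sets the projects apart, so this is not independent support.

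The GABAergic list of 21 genes summed to 2723 to 2936 CPM in GRC321 and 2304 to 3149 CPM in GRC327. Gad1 and Gad2, which make GABA, averaged 184 ± 17.5 and 419 ± 27.6 CPM in GRC321, against 176 ± 25.4 and 365 ± 50.3 CPM in GRC327. Of 19 tested members 4 were higher and 3 lower, a smaller share than that of all genes called. Against the lower-numbered GRC327 controls alone 3 were higher and 6 lower, and against the higher-numbered ones 6 higher and 2 lower. Calb1, a calcium buffer, had 90.6, 92.3, 95.9, 99.5 and 87.7 CPM in GRC321 and 28.3, 34.9 and 47.4 CPM as lowest, median and highest in GRC327 (log2 difference 1.30, SE 0.110, adjusted p = 3.75e-09). The peptide gene Sst rose by 0.73 on the log2 scale (SE 0.093, adjusted p = 1.05e-06). Cck, a peptide of basket interneurons and also of pyramidal cells, went the other way, with 62.3 to 112 CPM in GRC321 and 174 to 303 CPM in GRC327 (log2 difference -1.52, SE 0.132, adjusted p = 5.58e-09). Pvalb, the calcium buffer of fast-spiking interneurons, had no count in 4 of 5 GRC321 libraries and at most 0.15 CPM in GRC327. In a bulk library, fewer cells of a type and less RNA per cell cannot be told apart, here and below.

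**Figure D2:**
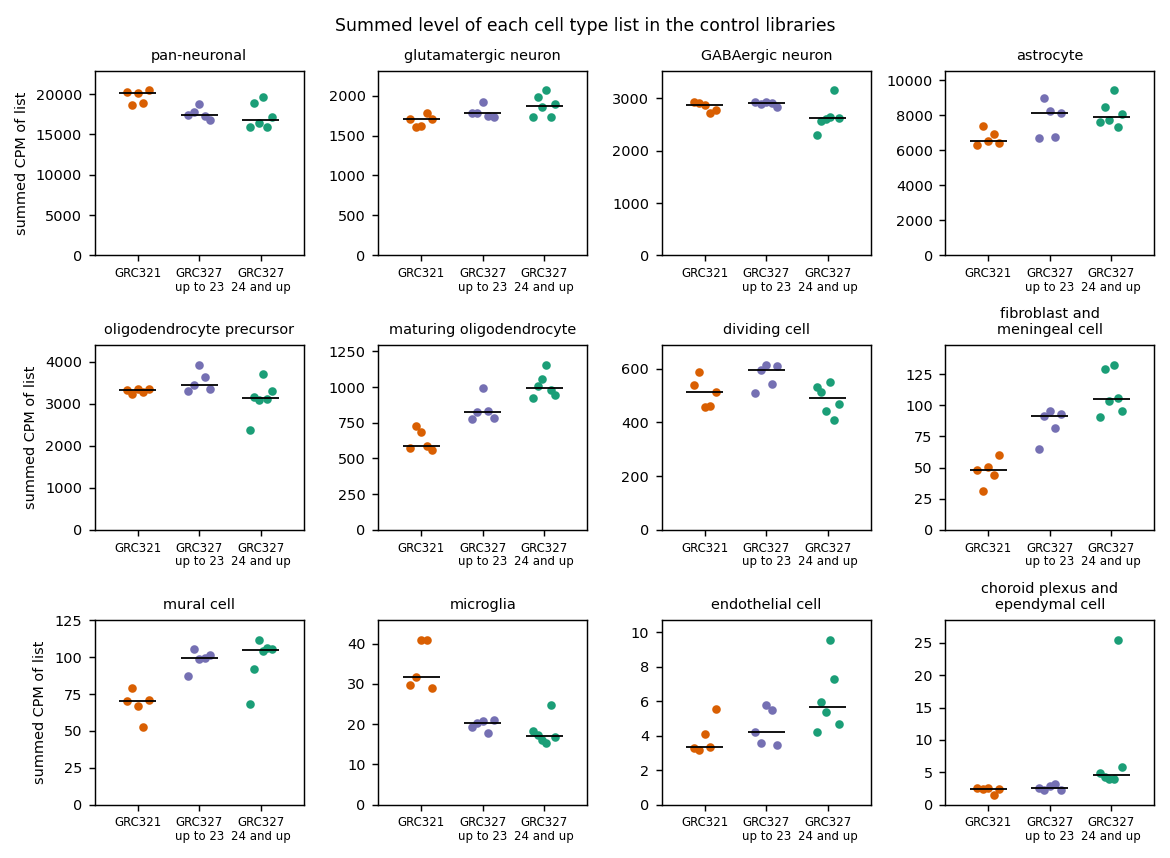
Summed CPM of 12 cell type lists in each control (points) with the median of each set (line), for GRC321 and both GRC327 title number sets; each vertical axis starts at 0. Neuronal, astrocyte and oligodendrocyte precursor lists hold the largest sums, while endothelial and choroid plexus markers stay near 0 except for 1 GRC327 library with 25.5 CPM of choroid plexus markers.

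Astrocyte genes were well read in every control. The 22 astrocyte genes summed to 6282 to 7372 CPM in GRC321 and 6695 to 9419 CPM in GRC327, with 2 of 21 tested members higher and 7 lower. Against the lower-numbered GRC327 controls alone 7 were higher and 5 lower, against the higher-numbered ones 3 higher and 9 lower, and 2 were higher and 5 lower against both. Aqp4, the water channel of astrocyte endfeet, averaged 735 ± 101 CPM in GRC321 and 909 ± 231 CPM in GRC327, and Gfap 285 ± 48.2 CPM in GRC321 and 280 ± 75.2 CPM in GRC327; neither passed the test, though Aqp4 did without haloperidol replicate 3 (adjusted p = 0.039). Slc1a3 (GLAST), a glutamate transporter, had 629, 555, 647, 1073 and 510 CPM in GRC321 and 377, 491 and 530 CPM as lowest, median and highest in GRC327. Its highest value was that of the cypermethrin library, and the groups overlapped in the cytosine arabinoside library (log2 difference 0.52, SE 0.123, adjusted p = 0.00116). Sox9, a glial factor, had 70.9 to 126 CPM in GRC321, above all GRC327 values of 37.8 to 52.5 CPM (log2 difference 1.01, SE 0.107, adjusted p = 9.2e-08). Fabp7, a lipid carrier of radial glia and young astrocytes, had 766, 796, 773, 526 and 726 CPM in GRC321 and 879, 1898 and 2495 CPM as lowest, median and highest in GRC327, without overlap (log2 difference -1.30, SE 0.192, adjusted p = 7.07e-06). Fabp7 also carried most of the radial glia and progenitor list, which summed to 859 to 1130 CPM in GRC321 and 1209 to 2830 CPM in GRC327, whereas Sox2 rose in GRC321 (log2 difference 0.92, SE 0.075, adjusted p = 2.55e-09).

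The oligodendrocyte lineage was read from precursor to maturing stages. Precursor genes summed to 3237 to 3347 CPM in GRC321 and 2364 to 3917 CPM in GRC327. Most of that sum was Ptprz1, a receptor phosphatase that radial glia and astrocytes also make, at 2110 ± 60.7 CPM in GRC321 and 1994 ± 365 CPM in GRC327. Pdgfra, the growth factor receptor that defines the precursors, averaged 610 ± 35.3 CPM in GRC321 and 514 ± 35 CPM in GRC327 (log2 difference 0.25, SE 0.066, adjusted p = 0.00276), a difference that did not pass against the lower-numbered GRC327 libraries alone (adjusted p = 0.056). Of the 11 genes 2 rose and 4 fell. Against the lower-numbered GRC327 controls alone 1 rose and 6 fell, and against the higher-numbered ones 2 rose and 4 fell. In both comparisons 1 rose and 4 fell.

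Genes of maturing oligodendrocytes were lower in GRC321. Their list summed to 559 to 727 CPM in GRC321 and 777 to 1154 CPM in GRC327, without overlap, and 8 of 12 tested members fell while 1, the myelin surface protein Mog, rose. The median sum was 824 CPM in the lower-numbered and 994 CPM in the higher-numbered GRC327 libraries. Against the lower-numbered alone 5 fell and Mog rose, against the higher-numbered alone 9 fell and none rose, and 5 fell against both. Myrf, the factor that turns on myelin genes, had 19.3, 33.8, 29.7, 28.2 and 31.2 CPM in GRC321 and 59.8, 72.3 and 79.6 CPM as lowest, median and highest in GRC327 (log2 difference -1.32, SE 0.110, adjusted p = 3.2e-09). Plxnb3, a semaphorin receptor of the lineage, had 12.7, 15.6, 17.6, 8.06 and 10.8 CPM in GRC321 and 60.2, 76.5 and 131 CPM in GRC327. It had the largest fall of the list (log2 difference -2.71, SE 0.202, adjusted p = 7.1e-10). Mbp, the main protein of compact myelin, averaged 62.6 ± 5.65 CPM in GRC321 and 101 ± 21.4 CPM in GRC327 (log2 difference -0.69, SE 0.133, adjusted p = 0.000149). Bcas1, a marker of the step between precursor and myelinating cell, belongs to the precursor list and is counted there, not here. Bcas1 averaged 74.8 ± 11 CPM in GRC321 and 214 ± 26.4 CPM in GRC327 (log2 difference -1.52, SE 0.105, adjusted p = 2.78e-10).

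Dividing cells were detectable in all controls. The 24 cell cycle genes summed to 459 to 586 CPM in GRC321 and 409 to 613 CPM in GRC327, and 23 of them reached 1 CPM in every library. Mki67, a protein of cycling nuclei, averaged 28.7 ± 5.74 CPM in GRC321 and 38.8 ± 5.91 CPM in GRC327 (log2 difference -0.43, SE 0.125, adjusted p = 0.00536), and its difference did not pass against the higher-numbered GRC327 libraries alone (adjusted p = 0.086). Top2a, the topoisomerase of mitotic chromosomes, averaged 77.2 ± 11.9 CPM in GRC321 and 88.8 ± 13.7 CPM in GRC327 and did not pass. Of the 24, 3 rose, among them Tyms, the thymidylate synthase that 5-fluorouracil inhibits, and 6 fell. This balance turned with the GRC327 set, with 3 higher and 9 lower against the lower-numbered libraries (median sum 596 CPM), 5 higher and 2 lower against the higher-numbered ones (491 CPM), and 1 higher and 2 lower against both.

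Most microglia, endothelial and erythroid markers were near 0, while mural cell and fibroblast or meningeal markers were not all so. The fibroblast and meningeal list of 11 genes summed to 31.4 to 59.8 CPM in GRC321 and 64.9 to 132 CPM in GRC327, without overlap. Of 10 measured microglia genes, 9 were under 1 CPM in every library, among them the receptor Csf1r, on which microglia depend, and the calcium-binding protein Aif1. The endothelial list of 9 genes summed to 3.18 to 5.52 CPM in GRC321 and 3.46 to 9.56 CPM in GRC327, and the 3 erythroid genes to at most 0.266 CPM in GRC321 and 0.357 CPM in GRC327. Mural cell genes summed to 52.9 to 79 CPM in GRC321 and 68.3 to 112 CPM in GRC327, mostly Notch3, which glial cells can also express, while the smooth muscle actin Acta2 stayed under 1 CPM. Col1a1, a fibrillar collagen of fibroblasts, had 1.51, 0.796, 1.19, 0.559 and 1.67 CPM in GRC321, 5.11 to 11.5 CPM in the lower-numbered and 27.7 to 53.9 CPM in the higher-numbered GRC327 libraries. None of the 3 sets overlapped another, and Col3a1 lay the same way. GRC321 was lower in both (Col1a1 log2 difference -4.39, SE 0.722, adjusted p = 2.49e-05; Col3a1 -4.36, SE 0.710, adjusted p = 2.22e-05). Ttr, the transthyretin of choroid plexus, had no count in 3 of 5 GRC321 libraries, none in the lower-numbered and 1.43 to 18.5 CPM in the higher-numbered GRC327 libraries.

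Fast excitation is carried by AMPA receptors, tetramers of Gria1 to Gria4, in which the Gria2 subunit blocks calcium entry. All 4 genes were well read. Gria2 averaged 968 ± 93.6 CPM in GRC321 and 1196 ± 254 CPM in GRC327; its difference was called (log2 difference -0.31, adjusted p = 0.0479) but not against the higher-numbered GRC327 libraries alone (adjusted p = 0.17) nor without 1 of several single libraries, such as domoic acid replicate 1 (adjusted p = 0.125). Gria1 had 128, 116, 105, 101 and 131 CPM in GRC321 and 153, 192 and 210 CPM as lowest, median and highest in GRC327, without overlap (log2 difference -0.64, SE 0.092, adjusted p = 4.81e-06), and Gria3 fell by 0.61 on the log2 scale (SE 0.087, adjusted p = 4.69e-06). Gria4, the subunit of interneurons and early circuits, averaged 336 ± 73.1 CPM in GRC321 and 247 ± 36.7 CPM in GRC327 (log2 difference 0.44, SE 0.115, adjusted p = 0.00259). Of 9 auxiliary subunits, which set AMPA receptor traffic and gating, 5 fell and 2 rose. Cnih2 (cornichon) averaged 83.5 ± 8.68 CPM in GRC321 and 162 ± 37.1 CPM in GRC327 (log2 difference -0.96, SE 0.143, adjusted p = 7.74e-06) and Cacng2 (stargazin) 45.6 ± 6.34 CPM in GRC321 and 32.4 ± 2.44 CPM in GRC327 (log2 difference 0.50, SE 0.084, adjusted p = 3.55e-05).

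Kainate receptor genes, whose products domoic acid activates, were all read, with Grik2 at 107 ± 4.42 CPM in GRC321 and 97.1 ± 12.1 CPM in GRC327 and Grik1 at 27.4 ± 5.92 CPM in GRC321 and 29.5 ± 3.26 CPM in GRC327; neither passed the test. Of the 9 kainate and delta receptor genes 5 fell and 1, the auxiliary Neto2, rose. Grik5, a high-affinity subunit, had 85.3, 79.5, 99.5, 72.8 and 99.6 CPM in GRC321, all below the GRC327 range of 124 to 165 CPM (log2 difference -0.72, SE 0.090, adjusted p = 8.4e-07).

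NMDA receptors were represented by Grin1, the obligate subunit, at 174 ± 23.4 CPM in GRC321 and 186 ± 18.8 CPM in GRC327, and by Grin2b at 222 ± 37.4 CPM in GRC321 and 219 ± 45.3 CPM in GRC327, neither of which passed the test. Grin2a, the subunit of mature synapses, had 23.4, 21.3, 28, 26.3 and 27.6 CPM in GRC321 and 23.4, 41.6 and 53.9 CPM as lowest, median and highest in GRC327 (log2 difference -0.70, SE 0.136, adjusted p = 0.000172). The count ratio of Grin2a to Grin2b was 0.115 ± 0.014 in GRC321 (0.1 to 0.135) and 0.189 ± 0.029 in GRC327 (0.152 to 0.257), so the ranges did not overlap. Grin2c fell too (log2 difference -1.57, SE 0.272, adjusted p = 4.68e-05), at 1.97 ± 1.23 CPM in GRC321 and 6 ± 1.49 CPM in GRC327. All 8 metabotropic glutamate receptor genes reached 1 CPM in every library. Grm5, which couples to calcium release, averaged 83 ± 14.7 CPM in GRC321 and 109 ± 12.6 CPM in GRC327, and it was among the 4 of these 8 genes that fell, with Grm2 and Grm4.

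**Figure D3:**
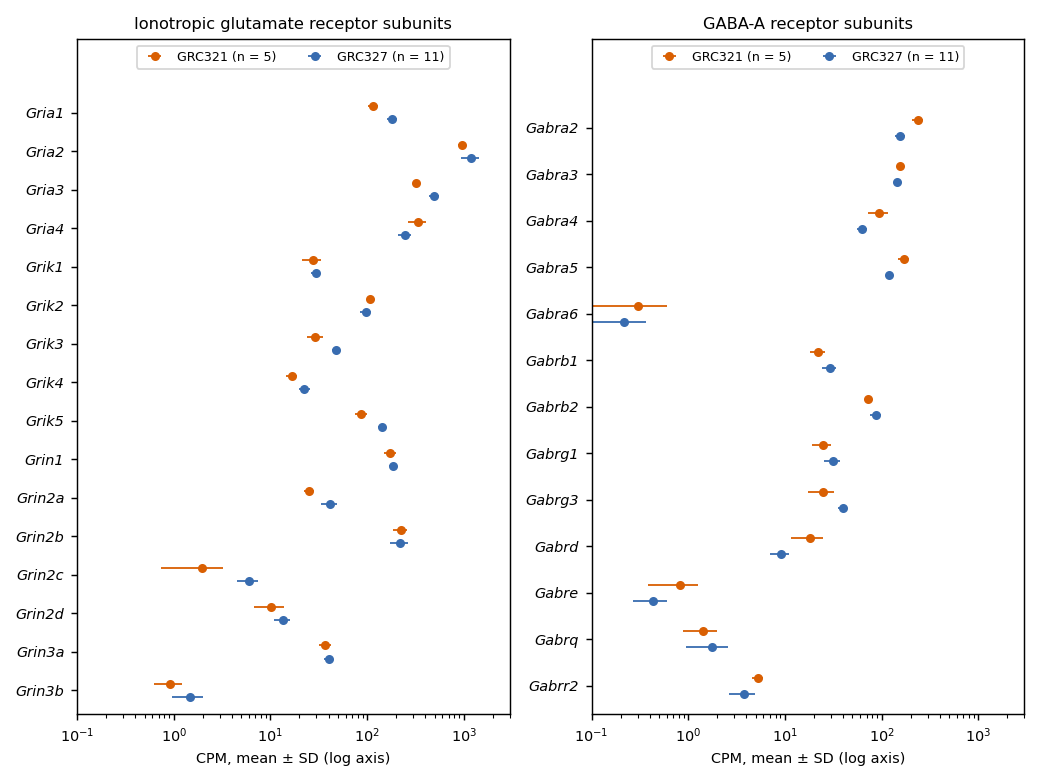
Mean CPM with SD (log axis) of the AMPA, kainate and NMDA receptor genes and of 13 GABA-A receptor genes, for GRC321 (n = 5) and GRC327 (n = 11). Gria1, Gria3 and Grik5 lie to the left in GRC321, Gabra2 and Gabra5 to the right, and Gabra6, a subunit of cerebellar granule cells, lies near 0 in both.

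The GABA-A receptor, a chloride channel of 5 subunits, was represented by all 3 classes that form the common synaptic receptor, alpha, beta and gamma. Of 19 genes 13 reached 1 CPM in every library, and Gabra6, Gabrp and Gabrr1 were under 1 CPM throughout. Gabra2, an alpha subunit prominent early in development, had 221, 200, 267, 269 and 221 CPM in GRC321 and 118, 161 and 179 CPM as lowest, median and highest in GRC327, without overlap (log2 difference 0.59, SE 0.089, adjusted p = 8.08e-06). Gabra5, an extrasynaptic alpha subunit, averaged 170 ± 21.5 CPM in GRC321 and 118 ± 6.64 CPM in GRC327 (log2 difference 0.52, SE 0.071, adjusted p = 2.42e-06). Gabrd, the delta subunit of tonic inhibition, had 21.9, 20.6, 21.5, 6.27 and 20.1 CPM in GRC321 and 5.76 to 11.7 CPM in GRC327, so that the cypermethrin library alone fell within the GRC327 range (log2 difference 0.99, SE 0.204, adjusted p = 0.000291). Of 14 tested members 5 rose and 4 fell.

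Of 6 GABA-B and glycine receptor genes tested 1 rose and 2 fell, a smaller share than that of all genes called, and of 5 chloride transporter genes 1 rose and 3 fell. Gabbr1, a GABA-B subunit, had 1142 to 1826 CPM in GRC321, below all GRC327 values of 2061 to 2823 CPM (log2 difference -0.60, SE 0.093, adjusted p = 1.36e-05). Glrb, the glycine receptor beta subunit, averaged 726 ± 38.8 CPM in GRC321 and 482 ± 94.5 CPM in GRC327 (log2 difference 0.59, SE 0.110, adjusted p = 0.000105). The exporter Slc12a5 had 51.5, 52.3, 58.1, 59 and 59.6 CPM in GRC321 and 82.2, 103 and 112 CPM as lowest, median and highest in GRC327, without overlap (log2 difference -0.86, SE 0.079, adjusted p = 1.3e-08). The importer Slc12a2 moved the other way (log2 difference 0.39, SE 0.090, adjusted p = 0.000857). The count ratio of Slc12a5 to Slc12a2 was 0.31 ± 0.029 in GRC321 (0.262 to 0.339) and 0.747 ± 0.1 in GRC327 (0.569 to 0.87).

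Modulatory receptors were led in counts by the cannabinoid receptor Cnr1, a presynaptic brake on release, with 1224, 1057, 1229, 1214 and 1129 CPM in GRC321 and 551, 652 and 739 CPM as lowest, median and highest in GRC327 (log2 difference 0.84, SE 0.078, adjusted p = 1.48e-08). The dopamine receptors Drd1 and Drd2, the second the main target of haloperidol, were read at low levels and were higher in GRC321. Drd2 had 20.1, 20.9, 13.7, 8.28 and 17.4 CPM in GRC321 and 4.64 to 9.86 CPM in GRC327, with only the cypermethrin library inside the GRC327 range (log2 difference 1.17, SE 0.176, adjusted p = 8.9e-06). Drd3, Drd4 and Drd5 were under 1 CPM in every library. The purinergic receptor list summed to 24.7 to 27.2 CPM in GRC321, 32.2 to 39.7 CPM in the lower-numbered and 24.5 to 30.5 CPM in the higher-numbered GRC327 libraries, which overlapped GRC321. The muscarinic receptor Chrm1 averaged 109 ± 12.1 CPM in GRC321 and 89.6 ± 8.16 CPM in GRC327 (log2 difference 0.29, adjusted p = 0.00441; adjusted p = 0.083 against the higher-numbered libraries alone). The nicotinic subunits Chrna4 and Chrnb2, which form the main nicotinic receptor of cortex, fell by 0.61 (SE 0.078, adjusted p = 1.07e-06) and 0.59 (SE 0.068, adjusted p = 2.68e-07) on the log2 scale.

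Sodium channels, which pyrethroids such as deltamethrin and cypermethrin hold open, were led in counts by Scn2a, the channel of young axons, at 1033 ± 52.7 CPM in GRC321 and 1096 ± 153 CPM in GRC327, with Scn3a, the embryonic channel, at 216 ± 15.4 CPM in GRC321 and 214 ± 23.2 CPM in GRC327; neither passed. Scn8a, the channel of mature axon initial segments, averaged 170 ± 16.4 CPM in GRC321 and 220 ± 30.2 CPM in GRC327 (log2 difference -0.37, SE 0.101, adjusted p = 0.00349). Scn10a, a channel of sensory neurons, was under 1 CPM in every library. Of 12 tested sodium channel genes 1 rose and 4 fell, while 5 fell against the lower-numbered GRC327 libraries alone and 2 against the higher-numbered ones.

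Of 15 calcium channel genes tested, 11 fell in GRC321 and 1 rose, against 28.6% of all genes lower. The pore subunits included Cacna1b (N-type, of presynaptic terminals), which had 256, 246, 277, 224 and 293 CPM in GRC321 and 265, 411 and 471 CPM as lowest, median and highest in GRC327 (log2 difference -0.62, SE 0.104, adjusted p = 2.98e-05). Cacna1e (R-type) fell by 0.93 on the log2 scale (SE 0.135, adjusted p = 5.77e-06), Cacna1c (L-type) by 0.78 (SE 0.112, adjusted p = 4.72e-06) and Cacna1g (T-type) by 0.77 (SE 0.101, adjusted p = 1.49e-06). The riser was Cacnb4, an auxiliary beta subunit, with 184, 173, 178, 165 and 164 CPM in GRC321 and 48.4, 69.1 and 83.3 CPM in GRC327, without overlap (log2 difference 1.36, SE 0.100, adjusted p = 6.76e-10). Among 24 voltage-gated potassium channel genes tested 4 rose and 9 fell, and among 23 inward rectifier, leak, calcium-activated and HCN channel genes 7 rose and 7 fell. Kcnt1, a sodium-activated channel, had 9.68 to 15.8 CPM in GRC321 and 25.2 to 38 CPM in GRC327 (log2 difference -1.19, SE 0.120, adjusted p = 4.7e-08).

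Genes that follow firing stood at modest levels. The 25 activity-regulated genes summed to 624 to 673 CPM in GRC321 and 569 to 661 CPM in GRC327, and 10 of 24 tested rose while 5 fell. Fos, an immediate early gene, had 3.8 to 5.51 CPM in GRC321 and 2.2 to 6.53 CPM in GRC327 and did not pass. Bdnf, a secreted neurotrophin induced by activity, had 14.3, 11.8, 14.6, 15 and 14.3 CPM in GRC321 and 5.72, 6.76 and 9.37 CPM as lowest, median and highest in GRC327, without overlap (log2 difference 0.97, SE 0.121, adjusted p = 7.86e-07). Ptgs2 (cyclooxygenase 2) rose by 1.41 on the log2 scale (SE 0.154, adjusted p = 1.42e-07), and the orphan nuclear receptor Nr4a1 fell by 1.00 (SE 0.161, adjusted p = 1.92e-05). Neuropeptide genes rose in 7 and fell in 1 of 14 tested. Against the lower-numbered GRC327 libraries alone 3 rose and 1 fell, and against the higher-numbered ones 5 rose and 1 fell. In both comparisons 2 rose and 1 fell. Penk, which encodes enkephalins, averaged 34.2 ± 4.39 CPM in GRC321 and 17.9 ± 2.99 CPM in GRC327 (log2 difference 0.93, SE 0.111, adjusted p = 4.2e-07).

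Genes on which the other compounds act were also read in the controls. Dck, the kinase that activates cytosine arabinoside, had 78.1, 70, 82.6, 81.9 and 68.1 CPM in GRC321 and 19.6, 27 and 33.3 CPM as lowest, median and highest in GRC327, without overlap (log2 difference 1.49, SE 0.108, adjusted p = 4.96e-10). Tyms averaged 18.9 ± 4.06 CPM in GRC321 and 12.1 ± 2.33 CPM in GRC327 (log2 difference 0.65, SE 0.143, adjusted p = 0.000559). Dpyd, which breaks down 5-fluorouracil, averaged 11.9 ± 2.84 CPM in GRC321 and 19 ± 4.02 CPM in GRC327 (log2 difference -0.66, SE 0.161, adjusted p = 0.00134).

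Of 16 stress and hypoxia genes tested, 13 rose in GRC321 and 2 fell, against 28.2% of all genes higher. The list summed to 2645 to 2938 CPM in GRC321 and 1703 to 2482 CPM in GRC327, without overlap, and 13 rose and 2 fell also without the cypermethrin library. Pdk1, a pyruvate dehydrogenase kinase, had 98.9, 84.3, 97, 101 and 106 CPM in GRC321. GRC327 had 36.9, 42.1 and 54.2 CPM as lowest, median and highest, without overlap (log2 difference 1.13, SE 0.091, adjusted p = 2.24e-09). Bnip3, a mitophagy receptor, had 345, 249, 384, 549 and 283 CPM in GRC321 and 134, 178 and 232 CPM in GRC327, also without overlap (log2 difference 1.08, SE 0.144, adjusted p = 2.1e-06). Egln3, an oxygen-sensing prolyl hydroxylase, rose by 1.08 (SE 0.134, adjusted p = 7.26e-07), the glucose transporter Slc2a1 by 0.86 (SE 0.189, adjusted p = 0.000574) and lactate dehydrogenase Ldha by 0.67 (SE 0.147, adjusted p = 0.000598) on the log2 scale. Vegfa, which hypoxia also induces in many tissues, did not follow them, with 329 to 450 CPM in GRC321 and 358 to 821 CPM in GRC327 (log2 difference -0.61, SE 0.155, adjusted p = 0.00204). In treated libraries, which belong to the same projects, Pdk1, Bnip3, Egln3, Slc2a1 and Ldha were higher in GRC321 as well. Their differences were 1.05, 1.30, 1.30, 1.24 and 0.57 on the log2 scale. Vegfa did not pass there (-0.18, adjusted p = 0.16).

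The promoters of these 5 genes that rose are shown because hypoxia-inducible factors bind DNA at a core of the letters ACGTG. The windows are RefSeq's for the GRCr8 build and run from 250 bases before to 50 bases after the annotated start, on the gene's strand, 5′ to 3′; capitals mark ACGTG or its reverse complement CACGT. They are Pdk1 at chr3:77113264-77113563 (plus strand), Bnip3 at chr1:203154913-203155212 (minus strand), Egln3 at chr6:77410966-77411265 (minus strand), Slc2a1 at chr5:138002272-138002571 (plus strand) and Ldha at chr1:106507842-106508141 (plus strand).
Pdk1: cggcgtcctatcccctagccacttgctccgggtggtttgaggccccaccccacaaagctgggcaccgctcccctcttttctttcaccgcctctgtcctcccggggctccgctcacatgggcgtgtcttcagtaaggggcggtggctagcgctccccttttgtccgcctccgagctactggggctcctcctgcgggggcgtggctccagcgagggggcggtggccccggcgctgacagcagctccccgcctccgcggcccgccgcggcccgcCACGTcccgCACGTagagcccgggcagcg
Bnip3: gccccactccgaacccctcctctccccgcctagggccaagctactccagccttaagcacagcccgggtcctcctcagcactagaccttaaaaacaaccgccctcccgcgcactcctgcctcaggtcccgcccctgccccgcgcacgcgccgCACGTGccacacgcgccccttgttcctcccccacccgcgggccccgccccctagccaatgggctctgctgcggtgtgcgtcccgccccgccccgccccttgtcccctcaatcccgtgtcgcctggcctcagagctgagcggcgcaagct
Egln3: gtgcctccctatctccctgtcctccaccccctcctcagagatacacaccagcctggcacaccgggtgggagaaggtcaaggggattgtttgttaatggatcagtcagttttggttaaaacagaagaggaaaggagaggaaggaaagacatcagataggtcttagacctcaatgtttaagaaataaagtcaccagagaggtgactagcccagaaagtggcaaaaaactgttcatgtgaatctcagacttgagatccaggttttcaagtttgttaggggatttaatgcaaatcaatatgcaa
Slc2a1: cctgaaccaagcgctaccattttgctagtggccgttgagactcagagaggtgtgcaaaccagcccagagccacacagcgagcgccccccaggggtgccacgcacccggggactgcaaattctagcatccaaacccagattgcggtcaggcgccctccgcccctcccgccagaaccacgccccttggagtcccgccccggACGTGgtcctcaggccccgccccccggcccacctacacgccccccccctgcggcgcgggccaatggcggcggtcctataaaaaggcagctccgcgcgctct
Ldha: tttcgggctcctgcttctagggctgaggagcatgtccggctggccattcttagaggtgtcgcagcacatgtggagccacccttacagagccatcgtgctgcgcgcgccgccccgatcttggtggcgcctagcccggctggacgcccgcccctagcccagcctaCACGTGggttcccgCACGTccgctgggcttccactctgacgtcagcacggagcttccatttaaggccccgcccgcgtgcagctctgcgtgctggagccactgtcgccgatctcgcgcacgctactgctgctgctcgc
Of the 16 measured list members, 12 had a window, and 8 of those held the letters on either strand. The 8 were Hspa5, Ddit3, Atf4, Asns, Slc2a1, Ldha, Pdk1 and Bnip3. Over all windows, counted by window and not by gene, 6444 of 33469 (19.3%) held the letters. Base composition was not matched, and enrichment was not tested. The windows of Trib3, Egln3 and Adm, which rose, and of Vegfa, which fell, held no match, while that of Ddit3, which fell, held 1. A match describes the window and is not evidence of binding.

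Mitochondrial transcripts were also higher in GRC321. Of 13 protein-coding genes of the mitochondrial genome 11 were higher in GRC321 and none was lower, and their sum ran from 33397 to 47442 CPM in GRC321 and from 24380 to 32910 CPM in GRC327. Mt-nd3, a subunit of complex I, had 1174, 1130, 1563, 2917 and 1248 CPM in GRC321 and 264, 348 and 437 CPM as lowest, median and highest in GRC327 (log2 difference 2.23, SE 0.159, adjusted p = 3.95e-10).

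**Figure D4:**
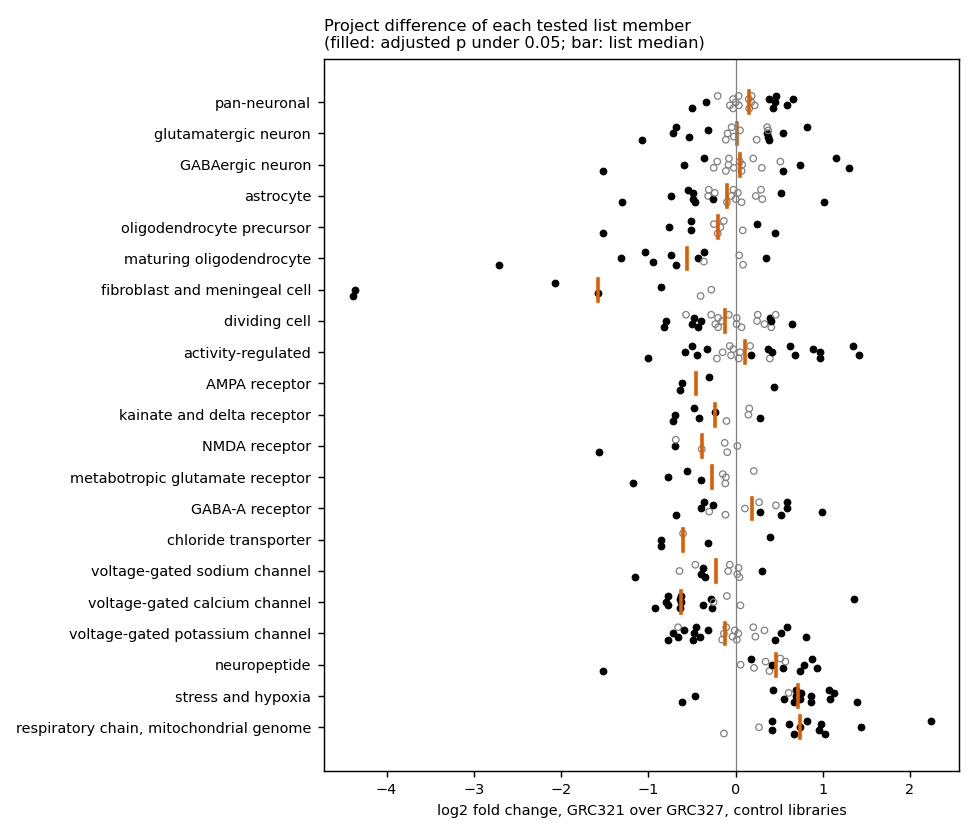
The log2 difference, GRC321 over GRC327, of each tested member of the gene lists in the controls, with filled points for genes called and a bar at each list's median. The stress and hypoxia and mitochondrial lists lie mostly above 0 and the maturing oligodendrocyte, fibroblast and calcium channel lists mostly below.

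Most of the project difference was found again in the treated libraries, which belong to the same projects. Controls and treated libraries share whatever sets the projects apart, so this recurrence is not independent support. In treated libraries 11253 of 15233 genes (73.9%) were called. Of the 7818 genes called in controls 7371 were called in the same direction in treated libraries, which is 94.3% of the control calls and 69.4% of the 10620 treated calls among genes tested in both, and 6 were called in the opposite direction. A test of whether the project difference itself differed between controls and treated libraries called 0 of 15343 genes with edgeR, with 1677 (10.9%) at an unadjusted p under 0.05 and a smallest adjusted p of 0.2. Against the higher-numbered GRC327 controls alone 6712 genes were called (50.1%), against the lower-numbered alone 7252 (54.7%), and 5748 were called in the same direction against both.

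Called genes at least 2-fold higher in GRC321 numbered 696 and those at least 2-fold lower 731. With an average log2 CPM of at least 3, the largest rises were LOC100910833 (log2 difference 8.74), LOC100909441 (4.82), LOC100361933 (3.45), AABR07034273.1 (3.40), Rpl27 and LOC100359668 (2.82 each), LOC100909878 (2.60) and Casp4, an inflammatory caspase (2.59). The largest falls were Elovl6, a fatty acid elongase (-5.34), AABR07050134.1 (-5.21), LOC102556337 (-5.02), RGD1564606 (-4.53), Col1a1 (-4.39), the small nucleolar RNA SNORD18 (-4.37), Col3a1 (-4.36) and AABR07065531.26 (-3.64). Leaving out 1 library kept each of these calls but moved 7 of the differences by more than 1.5 times. LOC100909441, at 911 CPM in the domoic acid control of GRC321 against a GRC321 median of 66.4 CPM, had a log2 difference of 3.47 without that library. AABR07050134.1 had -5.88 without it. Without the cytosine arabinoside control of GRC321 Elovl6 had -8.31, LOC102556337 -6.34 and SNORD18 -5.50, and without haloperidol replicate 2 LOC100910833, which had no count in 9 of 11 GRC327 libraries, had 10.32. RGD1564606 had 3.02 CPM in the cypermethrin control of GRC321 and no count in the other 4, so its size rests on that library. Ribosomal protein genes such as Rpl27 have near-identical pseudogenes, and how reads shared between copies were assigned is not given in the sources used here, so these counts are uncertain. Of 19 small nucleolar RNAs tested 15 fell and none rose, at a median log2 difference of -2.74, and of 11 microRNA genes 5 fell and none rose. The libraries were made from polyA RNA, so whether these counts reflect the mature small RNAs was not tested.

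Within a project the controls were close. Over 9586 genes with a mean log2 CPM of at least 3, the median SD of log2 CPM was 0.178 in GRC321 and 0.188 in GRC327, and the biological coefficient of variation was 16.8% in GRC321 and 16.1% in GRC327. Without the cypermethrin library the GRC321 median was 0.139, and within the GRC327 sets it was 0.148 up to title number 23 and 0.192 from 24 up. In GRC321 16 genes had an SD over 1, and in 12 of them the cypermethrin library lay farthest from the median. LOC103692716 had 1.9 CPM there against a GRC321 median of 450 CPM, the ribosomal protein gene Rps2 20.5 against 123 CPM, the complex I gene Ndufc1 53.4 against 235 CPM and Rpl39 129 against 39.2 CPM. In GRC327 5 genes had an SD over 1, namely the chromosome Y genes Ddx3 (3.81), Eif2s3y (3.63) and Kdm5d (3.13), Col1a1 (1.34) and LOC103689931 (1.10). Slc39a12, a zinc transporter of astrocytes, came close at 0.961, with 14.9 to 18.1 CPM in GRC321, 5.34 to 9.97 CPM in the lower-numbered and 14.6 to 34.3 CPM in the higher-numbered GRC327 libraries. The others among the highest were Zmiz2, Slc25a51, LOC102551901, AABR07051787.1 and LOC103693999. The steadiest gene of GRC327 was Rab11fip4, an adaptor of recycling endosomes, with an SD of 0.0406 around a mean of 321 CPM in GRC327, although it stood at 137 CPM in GRC321. Ap3d1, Hsph1, Exoc1 and Nup133 followed.

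**Figure D5:**
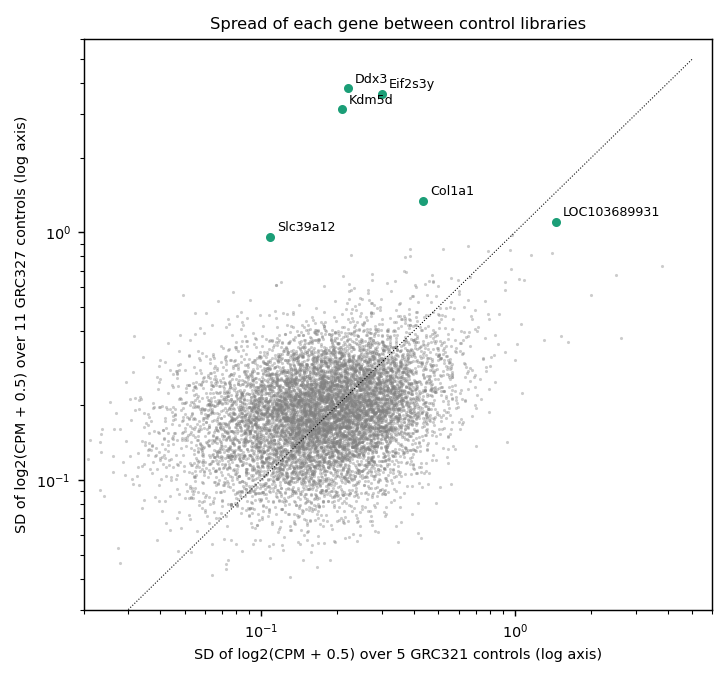
SD of log2(CPM + 0.5) over the 11 GRC327 controls (vertical) against that over the 5 GRC321 controls (horizontal), both on log axes, 1 point per gene, for 9586 genes with a mean log2 CPM of at least 3; the dotted line marks equal SDs. Ddx3, Eif2s3y and Kdm5d of chromosome Y, Col1a1 and Slc39a12 lie far above the line, while most genes lie around the medians of 0.178 in GRC321 and 0.188 in GRC327.

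The 6 compounds' own control sets, 2 or 3 libraries each, were compared to ask whether a compound's baseline differed from the others. With project as a term, edgeR's quasi-likelihood test called 0 of 13770 genes, with 483 at an unadjusted p under 0.05 and a smallest adjusted p of 0.981, while DESeq2's likelihood ratio test called 11 with 616 at an unadjusted p under 0.05. Among the 8 smallest p were those of AABR07046778.1, LOC100912538, AABR07057150.1, Ewsr1, LOC103693999, Ddn and AABR07024769.1, and none passed after adjustment. The sets were not balanced over the title numbers of GRC327, since both domoic acid controls there were lower-numbered and the deltamethrin and cypermethrin controls all higher-numbered. With the title number sets as a term edgeR again called 0 genes, with 552 at an unadjusted p under 0.05. The 5-fluorouracil set has no GRC321 library.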

How the data were processed

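RNA came from the RNeasy Plus kit, and its polyA fraction was made into libraries by the PrepX protocol, per the labels' protocols. The authors used Partek and STAR, per the submitters' processing notes. Not given in the sources used here are their roles and versions, the genome build, the annotation and the strandedness. For 19771 genes the authors deposited expected counts, 20.6% of them not whole (tolerance 1e-06), which were rounded for the tests. The deposited normalized table holds CPM with an offset of 1e-04 added by the authors and was not used for levels; the CPM given here were recomputed from the counts.

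Groups came from concentration and project in the labels. Counts were scaled by TMM (factors 0.939 to 1.08) and tested with edgeR 4.0.16 in R 4.3.3 (quasi-likelihood, filterByExpr with minimum count 10, Benjamini-Hochberg adjusted p under 0.05, 2-sided), which kept 13770 genes. The project test used the 16 controls with no covariate (residual degrees of freedom 14). The compound test added project (9). The test in treated libraries had compound and concentration as terms. All adjusted p values are edgeR's unless another tool is named. SDs of log2 CPM used a pseudocount of 0.5. DESeq2 1.42.0, limma 3.58.1, other filters, scalings, thinning to 7122404 counts and leaving out libraries were alternatives. The fits were first tested on simulated data. The share of planted changes recovered is not reported here, so few calls in the compound test do not show equal baselines. No permutation test was run.

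The 41 gene lists hold 550 symbols, of which 521 were in the table; the others were not analysed here. Some genes that the rules below pick are not reported here. Named genes are the 20 nuclear genes with the highest CPM, the leading and called list members, receptor subunits, the 8 largest changes each way, the 8 smallest p and the extremes of spread. Levels per kilobase were planned, but no transcript length was at hand, so CPM took their place. The members, lists and rules were chosen with earlier results of these data known. The title number split and the tests against each side of it were chosen after seeing the data.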

Additional observations from a re-analysis of the deposited data

Results flagged for a closer look

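In the 5 GRC321 controls 18 of 249 groups of values had 1 library far outside the other 4 (a gap of more than 0.71 of the whole range); chance flags about 1 in 20 groups. In 12 of them it was the cypermethrin control. Its radial glia list summed to 859 CPM, against 1050 to 1130 CPM in the other 4, and its choroid plexus list to 1.45 CPM, against 2.39 to 2.59 CPM. It was high for Gpm6a (4960 CPM against 3900 to 4090), Slc1a3 (1070 against 510 to 647), Vip (23.7 against 13.1 to 15.5), Mt-nd3 (2920 against 1130 to 1560) and LOC100909878 (48.7 against 18.7 to 25.3). It was low for Dclk1 (2080 CPM against 2650 to 2870), Camk2a (132 against 178 to 190), Fabp7 (526 against 726 to 796), Gabrd (6.27 against 20.1 to 21.9) and Chrna7 (35 against 50.8 to 56.9).

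The domoic acid control stood apart for Glrb (793 CPM against 696 to 721), Bdnf (11.8 against 14.3 to 15) and AABR07050134.1 (2.27 against 0.355 to 0.783). The cytosine arabinoside control did so for the NMDA receptor list (550 CPM against 432 to 466) and LOC102556337 (10.8 against 0.341 to 3.02), and the haloperidol control for Ocln, a tight junction gene (1.42 against 2.16 to 2.24).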

How the results depend on the processing

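The project test called 6951 to 7993 genes under the alternatives of scaling, filter, tool, covariates and depth, and 7196 to 7883 with each library left out. Over 210 named genes and their settings, 5271 of 5448 results stayed on the same side of the threshold, 116 calls were lost and 61 were gained. No gene called in the main fit turned direction, and the direction of uncalled genes was not followed. Gria2, Gabbr2, Gabrg1 and Npy1r were among the named genes whose calls were lost in several settings. Among the compounds' control sets, calls numbered 32 with no filter, 11 with DESeq2's likelihood ratio test and 0 to 3 with 1 library left out; the cause was not tested. Genes with no count in any library numbered 286 after thinning, which leaves fewer counts. Of 41 list sums 9 did not overlap between projects, 13 with library totals not scaled by TMM, and 9 to 15 with 1 library left out. The 15 came without haloperidol replicate 3. The median SD of GRC321 ranged from 0.139 to 0.187 with 1 library left out, lowest without the cypermethrin library, and that of GRC327 was 0.148 in the lower-numbered libraries alone. Libraries were not paired by replicate, because the replicate numbers were given in order and the titles carry none that groups share. With compound added as a term, the project test called 7336 genes. Depth limits statements on genes near 1 CPM, which rest on about 7 to 18 counts in a library.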

Other observations

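On a common scale over all 71 libraries, the summed lists of the controls lay inside the range of the treated libraries for most cell types. The astrocyte list ran from 6264 to 9484 CPM in controls, while treated libraries ran from 526 to 13183 CPM. Oligodendrocyte precursor genes ran from 2359 to 3914 CPM in controls and from 297 to 3692 CPM in treated libraries. Activity-regulated genes ran from 568 to 670 CPM in controls and up to 4824 CPM in treated ones. These ranges pool compounds and concentrations and were not tested.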
